A study of Mus musculus with 35 samples.

Results

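The insulin-like growth factor (IGF) genes of primary mouse embryonic fibroblasts (MEFs) are described here before and after alkylation: the ligands Igf1 and Igf2, the receptor Igf1r and the binding proteins Igfbp2, Igfbp3, Igfbp4, Igfbp5, Igfbp6 and Igfbp7. These 9 genes, 2 ligands, 1 receptor and 6 binding proteins, were chosen by symbol out of 18194 genes with a probe set of their own. The choice was made with earlier results of these data known, so counts of these genes are a description and not a test of the set. A gene with several such probe sets was followed by the one with the highest mean signal over all arrays, and its others served as a check. All 9 passed the limit on low signal.

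IGF1 and IGF2 are secreted growth factors that bind the IGF1 receptor, a tyrosine kinase, which passes the signal through insulin receptor substrates to PI3 kinase and AKT and so promotes growth and survival of fibroblasts. Outside the cell most IGF is held by IGF binding proteins, which keep it from the receptor, carry it or release it when proteases cut them, and several also act without IGF. IGFBP7 belongs to the same family but binds IGF only weakly.

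The study asked which genes respond to alkylation damage, and for this MEFs of the strain C57BL6/J were exposed to methyl methanesulfonate (MMS), which methylates DNA and other molecules, at 40 µg/mL. The cells came from embryos of day 15.5 by the labels (the methods name an earlier day), had been expanded for 2 passages (the methods name more), and grew in 10% serum at 5% oxygen. Fresh medium with or without MMS was given 24 h after plating. Control cells gave RNA at 5 times (0, 1, 8, 24 and 72 h), and cells kept in MMS at the last 4 of these. Each group has 4 arrays, or 3 in the case of MMS at 72 h. All groups are wild-type, none received a solvent control by the labels, and MEFs are what grows out of an embryo without head and liver and are not 1 purified cell type. Whether the arrays of a group came from separate embryos or cultures is not given in the sources used here, so p-values measure only the spread between these arrays, which may be technical.

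Signals are log2 values of Affymetrix arrays, on which probe sets differ in brightness, so levels are compared between groups of arrays and never between genes. Of 9 fibroblast markers such as Col1a2 and Vim, all had means at or above the limit of log2 4.40 in all 9 groups, and the mean of the list lay between 9.70 and 12.01 on every array. Some arrays stood apart. On the 8 arrays at 8 h the mean of 14 macrophage markers was 7.73 to 8.51, against 4.50 to 6.17 on the other 27 arrays, and in the MMS arrays at 8 h it was 7.73 to 7.93 against 8.38 to 8.51 in the controls. Markers of intestinal epithelium were raised on replicate 3 of control at 0 h (10.31), of MMS at 1 h (6.76), of MMS at 24 h (8.39) and of MMS at 72 h (5.74), against 4.11 to 5.42 elsewhere, and liver markers were raised on replicate 3 of control at 0 h (6.85 against at most 5.10). The mean of the muscle markers was 5.47 to 5.65 on the 8 h arrays and 4.57 to 5.11 elsewhere, and that of the endothelial markers 4.17 to 4.66 on all arrays.

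Of the differences between MMS and control of the same time that passed the test, all were toward lower signal after MMS but that of Igfbp3 at 8 h. At 1 h none of the 9 passed the test in limma (adjusted p under 0.05) in either direction, where 0.361% of all 14135 genes tested were higher and 0.0283% lower. Only Igfbp2 (log2 0.22) and Igfbp4 (log2 0.21) had an unadjusted p under 0.05 at that time, as did 1055 of all 14135 genes. At 8 h 6 genes were lower, Igfbp3 was higher, and Igf2 and Igfbp2 did not pass, where 25.0% of all genes were lower and 28.7% higher. At 24 h all 9 were lower, where 19.4% of all genes were lower and 25.0% higher. At 72 h 7 of 9 were lower and none higher, where 10.4% of all genes were lower and 10.1% higher (20.9% and 18.9% with array weights). Igf1r and Igfbp7 did not pass at 72 h, and Igf1r was the eighth gene with an unadjusted p under 0.05. Such a p was found for 4186 of all 14135 genes. The median difference of the 9 genes was log2 0.14 at 1 h, -0.40 at 8 h, -1.01 at 24 h and -0.87 at 72 h, and over all genes tested it was 0.06 at 8 h, 0.01 at 24 h and -0.01 at 72 h. Fewer cells of a type and less RNA per cell cannot be told apart in such bulk samples.

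**Figure D1:**
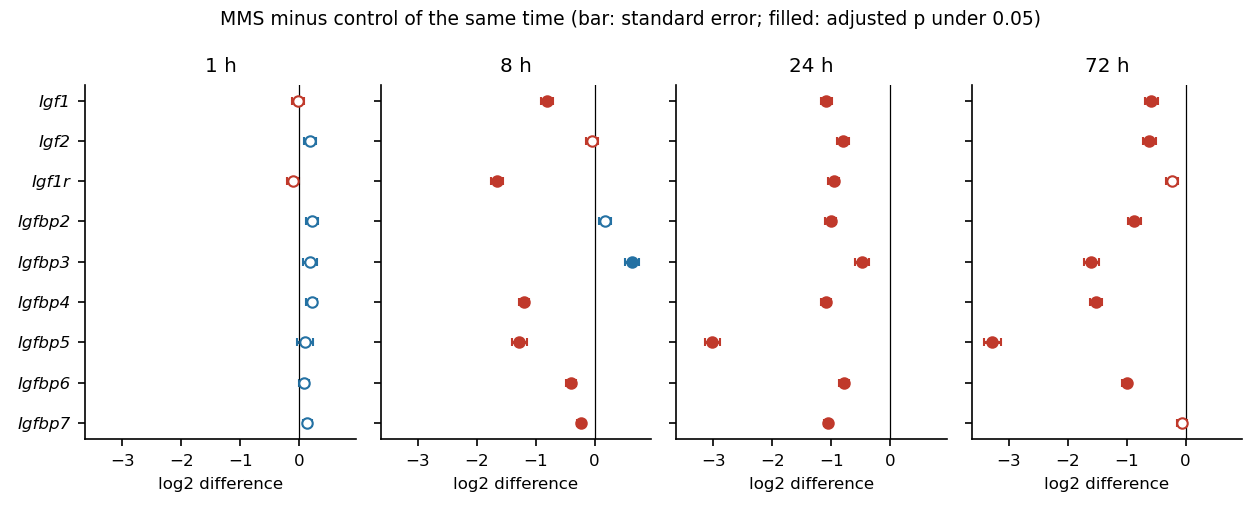
Log2 difference of MMS minus control arrays of the same time for each gene, 1 panel per time, with bars for the standard error and filled points for an adjusted p under 0.05. No point is filled at 1 h, all 9 are filled left of 0 at 24 h, and Igfbp5 lies farthest left at 24 and 72 h with -3.02 and -3.28.

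The mean of the fibroblast list moved in the same direction: it was 9.70 to 10.20 on the MMS arrays and 10.86 to 10.99 on the control arrays at 24 h, 10.20 to 10.28 against 10.91 to 11.00 at 8 h, and 11.19 to 11.39 against 11.84 to 12.01 at 72 h. Of its 9 genes 7, 8 and 4 were lower at 8, 24 and 72 h and 1 at 1 h, and 1 was higher at 24 h. Of the 14 macrophage markers 8 were lower and 1 higher at 8 h, and 3 and 2 were higher at 24 and 72 h. The part of these shifts in the IGF results was not tested. Of the intestinal, liver, muscle and endothelial markers tested (14, 7, 5 and 3), at most 1 passed in each direction at any time. Without the 4 arrays with intestinal transcripts the counts of IGF genes higher and lower after MMS were the same at each time.

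For some genes, picked by their response to MMS, the 250 bases before a transcript start are shown, as given by RefSeq on GRCm38.p6 and written 5′ to 3′ in the direction of the gene. The 9 genes had 13 windows, and the 4 below are those of Igfbp5, which fell most, Igfbp3, which was higher at 8 h, Igfbp4, which fell at 3 times, and Igf1r, which fell most at 8 h. Capitals mark matches to letters searched on both strands, chosen with the windows in view: TATAAA, which 12.4% of all 32851 windows hold, the letters TATATA in 5.25%, the letters TATTTAA in 4.18%, the AP-1 type letters TGANTCA in 6.75%, the CCAAT box in 33.8%, the GC box GGGCGG in 32.7%, and the letters TGATGNAA, as bound by ATF4 and C/EBP factors, in 3.45%. The windows are chr1:72874866-72875115 on the minus strand for Igfbp5, chr11:7213924-7214173 on the minus strand for Igfbp3, chr11:99040994-99041243 on the plus strand for Igfbp4 and chr7:67952007-67952256 on the plus strand for Igf1r. Those of Igfbp3 and Igfbp4 lie inside the annotated span of the gene, so the start used there is not the outermost one.
Igfbp5: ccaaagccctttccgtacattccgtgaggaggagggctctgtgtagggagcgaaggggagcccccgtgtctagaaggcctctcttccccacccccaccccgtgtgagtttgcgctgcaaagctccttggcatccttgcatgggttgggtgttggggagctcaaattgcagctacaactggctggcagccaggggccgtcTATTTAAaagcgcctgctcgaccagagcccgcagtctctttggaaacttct
Igfbp3: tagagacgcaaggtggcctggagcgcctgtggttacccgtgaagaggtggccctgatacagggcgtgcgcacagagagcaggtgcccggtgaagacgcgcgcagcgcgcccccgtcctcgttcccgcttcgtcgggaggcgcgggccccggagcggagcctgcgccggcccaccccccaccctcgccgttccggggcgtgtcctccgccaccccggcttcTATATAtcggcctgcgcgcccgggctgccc
Igfbp4: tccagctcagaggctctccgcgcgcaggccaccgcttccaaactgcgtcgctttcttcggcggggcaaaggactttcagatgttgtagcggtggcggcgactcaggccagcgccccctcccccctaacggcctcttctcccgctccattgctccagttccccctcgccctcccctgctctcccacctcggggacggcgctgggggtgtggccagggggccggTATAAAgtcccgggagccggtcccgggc
Igf1r: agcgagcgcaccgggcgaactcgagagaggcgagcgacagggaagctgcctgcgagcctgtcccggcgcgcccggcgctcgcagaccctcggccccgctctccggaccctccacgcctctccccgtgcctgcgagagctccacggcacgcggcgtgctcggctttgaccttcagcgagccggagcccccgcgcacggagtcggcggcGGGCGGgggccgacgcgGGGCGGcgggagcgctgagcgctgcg
Igfbp5, Igfbp3 and Igfbp4 each hold 1 run of the TATA type, 51 to 45 bases before the start in Igfbp5, 30 to 25 in Igfbp3 and 28 to 23 in Igfbp4. Igf1r holds none of these and has 2 GC boxes, 43 to 38 and 26 to 21 bases before its start, in a window of 77.6% G and C with 42 CpG, where the median window has 52.4% and 6. Among the windows not shown, that of Igfbp6 holds TATAAA on the opposite strand, 148 to 143 bases before its start. GC boxes also lie in windows of Igfbp2, Igfbp7 and Igf2, and the CCAAT box in windows of Igf1, Igf2 and Igfbp6. The window of Igf1 and one of the windows of Igfbp2 hold 1 match each to TGANTCA, and no window of the 9 genes matched TGATGNAA. Such matches are a description of letters and not of bound sites.

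Igfbp2 and Igfbp5 are neighbours on chromosome 1 of GRCm38, at 72824480 to 72852474 on the plus strand and 72858065 to 72874865 on the minus strand, with 5590 bases between their ends. After 8 h of MMS Igfbp5 was lower and Igfbp2 not past the threshold, and after 24 and 72 h both were lower. The difference between these genes was not tested. The other genes lie far from each other, on chromosome 10 (Igf1), 7 (Igf1r and Igf2), 11 (Igfbp3 and Igfbp4), 15 (Igfbp6) and 5 (Igfbp7).

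**Figure D2:**
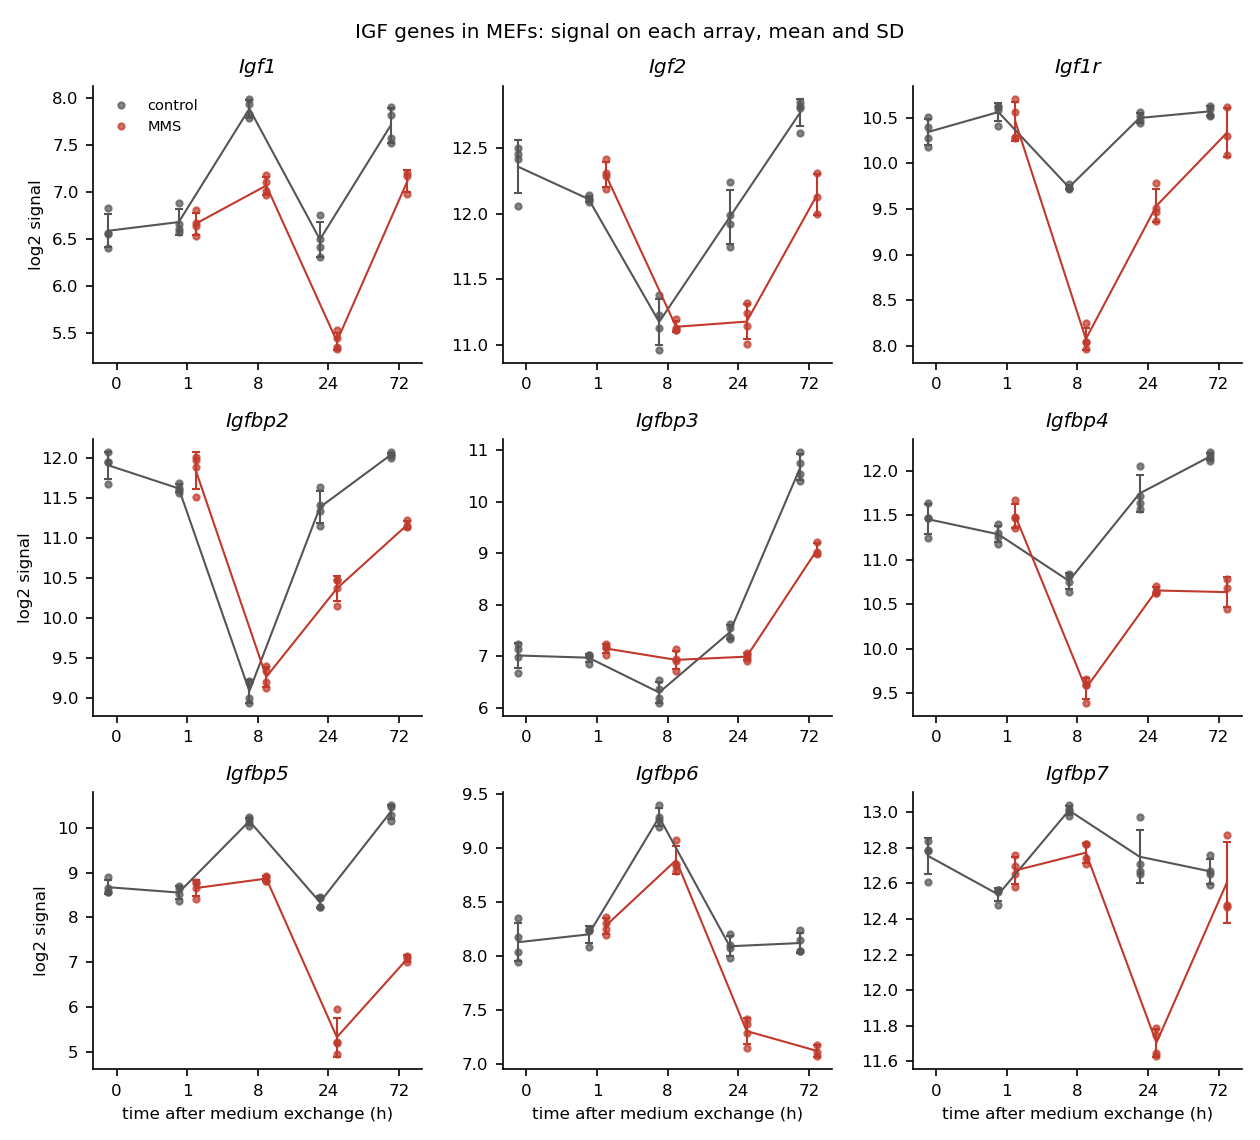
Log2 signal of each IGF gene by time after the medium exchange, with 1 point per array (control grey, MMS red), lines through the group means and bars for the SD. The scale differs between panels. Control and MMS arrays of Igfbp5 are apart at 8, 24 and 72 h, while Igf2 and Igfbp2 drop together in both at 8 h.

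Igf1, the ligand that mediates much of the action of growth hormone, was lower after MMS at 8, 24 and 72 h. Its log2 signal was 6.59 ± 0.17 (SD, n = 4) in control cells at 0 h, 6.68 ± 0.14 at 1 h and 6.66 ± 0.12 after 1 h of MMS. At 8 h the control arrays read 7.78, 7.93, 7.83 and 7.99 and the MMS arrays 7.11, 6.97, 7.01 and 7.18. At 24 h the control arrays read 6.50, 6.75, 6.31 and 6.42 and the MMS arrays 5.33, 5.45, 5.53 and 5.35. Every MMS array was lower than every control array at both times, and the values at 24 h after MMS were the lowest of the 9 groups. Against control of the same time Igf1 was 1.76-fold lower at 8 h (log2 -0.81, standard error 0.10, adjusted p = 2.7e-08) and 2.11-fold lower at 24 h (log2 -1.08, standard error 0.10, adjusted p = 1.5e-10). Against control at 0 h the probe set used was higher after 8 h of MMS (log2 0.48, adjusted p = 7.3e-05) and lower after 24 h (log2 -1.17, adjusted p = 2.1e-11). It was higher again after 72 h (log2 0.53, adjusted p = 1.8e-04). At 72 h Igf1 had risen in both arms, to 7.52, 7.57, 7.90 and 7.82 in control and 7.20, 7.17 and 6.98 in MMS-treated cells, and was still lower after MMS with no overlap (log2 -0.58, standard error 0.11, adjusted p = 1.1e-04). Ordered by mean, control at 8 h and control at 72 h were the highest groups, and the difference between them was not past the threshold (log2 0.18, adjusted p = 0.1).

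Igf2, the imprinted ligand of fetal growth, was lower after MMS from 24 h on. It read 12.36 ± 0.20 (SD, n = 4) in control cells at 0 h, 12.11 ± 0.02 at 1 h and 12.30 ± 0.09 after 1 h of MMS, where the MMS arrays all lay above the control arrays without passing the test (adjusted p = 0.72). At 8 h control arrays read 11.38, 10.96, 11.23 and 11.13 and MMS arrays 11.20, 11.11, 11.11 and 11.13. These values overlapped (log2 -0.04, adjusted p = 0.78), and Igf2 was low in both arms. At 24 h the signal was 12.24, 11.99, 11.75 and 11.92 in control and 11.32, 11.24, 11.01 and 11.14 in MMS-treated cells, a 1.74-fold fall with no overlap (log2 -0.80, standard error 0.10, adjusted p = 6.0e-08). At 72 h it was 12.62, 12.81, 12.82 and 12.85 in control and 12.31, 12.13 and 12 after MMS, again without overlap (log2 -0.62, standard error 0.11, adjusted p = 3.9e-05). With the mean of its 2 probe sets in place of the brighter one the difference at 72 h was -0.36 and was not past the threshold (adjusted p = 0.075).

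Igf1r, the receptor kinase for both ligands, showed the largest fall of the 9 genes at 8 h and was back near control at 72 h. In control cells it read 10.34 ± 0.15 (SD, n = 4) at 0 h and 10.56 ± 0.10 at 1 h, and 10.46 ± 0.21 after 1 h of MMS. At 8 h the control arrays read 9.73, 9.72, 9.73 and 9.77 and the MMS arrays 8.04, 8.25, 7.97 and 8.04. The groups were more than 1 log2 unit apart, a 3.17-fold fall (log2 -1.66, standard error 0.10, adjusted p = 9.6e-15), which was the 207th largest fall of 14135 genes. At 24 h control arrays read 10.47, 10.56, 10.52 and 10.44 and MMS arrays 9.79, 9.37, 9.51 and 9.47, lower by 1.95-fold with no overlap (log2 -0.96, standard error 0.10, adjusted p = 2.3e-09). At 72 h the values were 10.60, 10.53, 10.52 and 10.63 in control and 10.62, 10.30 and 10.09 after MMS and overlapped through MMS replicate 1. The difference of -0.23 was not past the threshold (adjusted p = 0.14), but it was past it without that array (-0.37, adjusted p = 0.016) and with array weights, which count noisy arrays less (-0.28, adjusted p = 0.0043). In the order of means the control groups other than 8 h, with MMS at 1 h and at 72 h among them, stood at the top with no neighbours past the threshold. MMS at 8 h was the lowest group.

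Among the binding proteins Igfbp5, which is secreted by fibroblasts and also binds the extracellular matrix, had the largest fall of the 9 genes at 24 and 72 h, by its brighter probe set. It read 8.67 ± 0.16 (SD, n = 4) in control cells at 0 h, 8.55 ± 0.14 at 1 h and 8.65 ± 0.17 after 1 h of MMS. At 8 h the signal was 10.05, 10.13, 10.19 and 10.23 on control and 8.82, 8.93, 8.80 and 8.91 on MMS arrays, 2.44-fold lower (log2 -1.28, standard error 0.13, adjusted p = 1.1e-09). At that time the difference of the MMS arrays from control at 0 h was not past the threshold (log2 0.19, adjusted p = 0.18), while the controls of 8 h stood above it. At 24 h control arrays read 8.44, 8.46, 8.23 and 8.22 and MMS arrays 4.94, 5.22, 5.94 and 5.18. This was a fall of 8.09-fold (log2 -3.02, standard error 0.13, adjusted p = 1.6e-17), the 4th largest of 14135 genes, and the highest MMS array was replicate 3, 1 of those with intestinal transcripts, without which the difference was -3.22. At 72 h control arrays read 10.50, 10.16, 10.46 and 10.28 and MMS arrays 6.99, 7.14 and 7.10. All MMS arrays were at least 3 log2 units under all control arrays, and the 9.69-fold fall (log2 -3.28, standard error 0.14, adjusted p = 2.3e-16) was the largest of all 14135 genes tested. In the order of means MMS at 24 h was the lowest group and MMS at 72 h the next, each past the threshold from its neighbour. A second probe set of Igfbp5, which is dimmer, gave log2 differences of -0.43, -0.38 and -0.62 at 8, 24 and 72 h (adjusted p = 0.051, 0.11 and 0.027), and with the mean of both the fall was -1.70 at 24 h and -1.95 at 72 h.

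Igfbp4, an inhibitor of IGF action that the protease PAPP-A cuts, was lower after MMS at 8, 24 and 72 h. It read 11.45 ± 0.16 (SD, n = 4) in control cells at 0 h, 11.29 ± 0.09 at 1 h and 11.49 ± 0.13 after 1 h of MMS. At 8 h the control arrays read 10.82, 10.64, 10.75 and 10.84 and the MMS arrays 9.66, 9.39, 9.59 and 9.59 (log2 -1.20, standard error 0.09, adjusted p = 1.6e-12). At 24 h control arrays read 12.05, 11.71, 11.57 and 11.64 and MMS arrays 10.71, 10.63, 10.63 and 10.65 (log2 -1.09, standard error 0.09, adjusted p = 2.2e-11). The arms did not overlap at these times and were 2.3-fold and 2.13-fold apart. At 72 h the control arrays, at 12.14, 12.11, 12.17 and 12.21, were the highest of all groups, and the MMS arrays, at 10.78, 10.45 and 10.68, were 2.87-fold lower (log2 -1.52, standard error 0.10, adjusted p = 1.1e-12). From 24 to 72 h Igfbp4 rose in control cells (log2 0.41, adjusted p = 4.5e-04) and after MMS the change was not past the threshold (log2 -0.02, adjusted p = 0.91).

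Igfbp3, the main carrier of IGF in blood and an inhibitor of growth in culture, was the 1 gene higher after MMS at 8 h. It read 7.02 ± 0.25 (SD, n = 4) in control cells at 0 h, 6.97 ± 0.08 at 1 h and 7.16 ± 0.10 after 1 h of MMS. At 8 h control arrays read 6.09, 6.54, 6.20 and 6.37 and MMS arrays 6.95, 6.72, 7.15 and 6.91. All MMS arrays were above all control arrays, by 1.55-fold (log2 0.63, standard error 0.12, adjusted p = 3.1e-05). Against control at 0 h the probe set used was at -0.08 after 8 h of MMS (adjusted p = 0.51) and at -0.71 in control cells at 8 h, and the second probe set was at 1.46 (adjusted p = 3.8e-11) and at 0.24 (adjusted p = 0.12). Both gave a higher signal after MMS, while which arm had moved from 0 h depended on the probe set. At 24 h the order was turned, with 7.62, 7.55, 7.37 and 7.33 in control and 7.06, 6.97, 6.92 and 7.03 after MMS (log2 -0.47, standard error 0.12, adjusted p = 0.0012). At 72 h control arrays read 10.97, 10.40, 10.54 and 10.76 and MMS arrays 8.98, 9.22 and 9.02, a 3.03-fold difference without overlap (log2 -1.60, standard error 0.13, adjusted p = 4.7e-11). Control and then MMS at 72 h were the highest of the 9 groups. Both arms had risen from 24 h, control cells by log2 3.20 and MMS-treated cells by 2.08 (adjusted p = 6.9e-19 and 1.4e-14).

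Igfbp2, a binding protein abundant in fetal tissue, was lower after MMS at 24 and 72 h. It read 11.91 ± 0.17 (SD, n = 4) in control cells at 0 h, 11.63 ± 0.05 at 1 h and 11.85 ± 0.23 after 1 h of MMS. At 8 h control arrays read 8.94, 9.21, 9.22 and 9.0 and MMS arrays 9.40, 9.13, 9.21 and 9.34. Both arms were far under all other groups and overlapped each other (log2 0.18, adjusted p = 0.15). At 24 h control arrays read 11.64, 11.42, 11.16 and 11.34 and MMS arrays 10.48, 10.38, 10.48 and 10.16, 2.02-fold lower (log2 -1.01, standard error 0.10, adjusted p = 1.3e-09). At 72 h control arrays read 12.01, 12.08, 12.04 and 12.04 and MMS arrays 11.14, 11.23 and 11.15, 1.83-fold lower (log2 -0.87, standard error 0.11, adjusted p = 4.1e-07). The arms did not overlap at 24 and 72 h.

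Igfbp6, which prefers IGF2 over IGF1, was lower after MMS at 8, 24 and 72 h. It read 8.13 ± 0.17 (SD, n = 4) in control cells at 0 h, 8.20 ± 0.07 at 1 h and 8.28 ± 0.07 after 1 h of MMS. At 8 h control arrays read 9.29, 9.20, 9.40 and 9.26 and MMS arrays 9.08, 8.85, 8.79 and 8.84 (log2 -0.40, standard error 0.08, adjusted p = 6.0e-05). At 24 h control arrays read 8.08, 8.21, 7.98 and 8.10 and MMS arrays 7.29, 7.37, 7.15 and 7.42 (log2 -0.78, standard error 0.08, adjusted p = 8.1e-10). There was no overlap at either time. After 8 h of MMS the mean was 8.89, against 8.13 in control cells at 0 h, while the controls of 8 h stood at 9.29. At 72 h control arrays read 8.05, 8.05, 8.15 and 8.24 and MMS arrays 7.11, 7.08 and 7.18, and MMS at 72 h was the lowest group, next to MMS at 24 h, from which it did not differ past the threshold (2-fold under control, log2 -1.0, standard error 0.08, adjusted p = 1.3e-10).

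Igfbp7, a secreted protein of fibroblasts and vessels, had its largest fall at 24 h and none past the threshold at 72 h. It read 12.76 ± 0.10 (SD, n = 4) in control cells at 0 h, 12.54 ± 0.04 at 1 h and 12.67 ± 0.07 after 1 h of MMS. At 8 h control arrays read 13.04, 12.98, 13.01 and 13.01 and MMS arrays 12.82, 12.82, 12.71 and 12.74, a small difference without overlap (log2 -0.23, standard error 0.07, adjusted p = 0.0086) that was not past the threshold with the mean of its 3 probe sets (-0.15, adjusted p = 0.11). At 24 h control arrays read 12.97, 12.71, 12.65 and 12.67 and MMS arrays 11.63, 11.75, 11.65 and 11.79, 2.07-fold lower (log2 -1.05, standard error 0.07, adjusted p = 7.3e-13). MMS at 24 h was the lowest of the 9 groups by 0.83. At 72 h control arrays read 12.76, 12.65, 12.59 and 12.67 and MMS arrays 12.87, 12.47 and 12.48. These values overlapped, with MMS replicate 1 above all controls, and the difference of -0.06 had an adjusted p of 0.71 (-0.15 and 0.016 with array weights).

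The time course of the MMS effect was tested through its change from 1 time to the next. From 1 to 8 h the effect became lower in 6 of 9 genes and higher in Igfbp3. Of all 14135 genes it became lower in 2834 and higher in 3010 (41.3% in either direction). Igf1r moved most, by log2 -1.56 (standard error 0.14, adjusted p = 2.4e-10). The change of Igfbp3 (0.45, adjusted p = 0.029) was not past the threshold without control 1 h replicate 1 (0.43) or 4 (0.43), MMS 1 h replicate 4 (0.40), control 8 h replicate 1 (0.38) or 3 (0.41), or MMS 8 h replicate 3 (0.37). That of Igfbp7 (-0.37) was not past it with the mean of all probe sets (-0.12, adjusted p = 0.43). From 8 to 24 h the effect became lower in 6 genes and less negative in Igf1r (0.70, adjusted p = 1.4e-04). Of all genes it became lower in 3143 and higher in 3299 (45.6% in either direction). Igfbp5 moved most, by -1.73 (standard error 0.19, adjusted p = 7.2e-09), followed by Igfbp2 at -1.19. The change of Igf1 (-0.27, adjusted p = 0.12) did not pass. It did when arrays were quantile-normalized again (-0.35, adjusted p = 0.027) or centred (-0.39, adjusted p = 0.018). From 24 to 72 h the effect became less negative in Igf1 (0.50), Igf1r (0.73) and Igfbp7 (0.99, adjusted p = 2.7e-08) and more negative in Igfbp3 (-1.13) and Igfbp4 (-0.43). Of all genes it became higher in 1759 and lower in 2339 (29.0% in either direction). The change of Igfbp4 was not past the threshold without MMS 72 h replicate 2 (-0.34, adjusted p = 0.07). For Igfbp5, Igfbp6, Igf2 and Igfbp2 no change of the effect from 24 to 72 h passed, but that of Igfbp6 did with array weights (-0.32, adjusted p = 0.0027).

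In control cells the IGF genes moved with time in culture as well. At 1 h no gene passed against 0 h in limma, where 7.22% of all genes were higher and 4.38% lower. An unadjusted p under 0.05 was found for 4 (Igf2, Igf1r, Igfbp2 and Igfbp7) and for 3544 of all 14135 genes. Without control 0 h replicate 3, Igf2 (-0.34), Igfbp2 (-0.37) and Igfbp7 (-0.27) were lower at 1 h. At 8 h Igf1, Igfbp5, Igfbp6 and Igfbp7 were higher and the other 5 lower, where 35.8% of all genes were higher and 23.6% lower. Igfbp2 fell 7.07-fold (log2 -2.82, standard error 0.10, adjusted p = 1.1e-19), the 27th largest fall of 14135 genes, and Igf2 fell 2.27-fold (log2 -1.18, standard error 0.10, adjusted p = 1.5e-11). Igfbp5 rose 2.79-fold (log2 1.48, standard error 0.13, adjusted p = 6.9e-11), Igf1 rose 2.45-fold and Igfbp6 2.23-fold. Igfbp3 (-0.71), Igfbp4 (-0.69) and Igf1r (-0.60) were lower by less, and Igfbp7 was higher by 0.25. With the mean of all probe sets Igfbp3 (-0.24, adjusted p = 0.063) and Igfbp7 (0.16, adjusted p = 0.069) were not past the threshold. For Igf1 and Igf1r the direction at 8 h differed between probe sets, as given with the probe sets below. On these same 8 h control arrays the macrophage list stood at 8.38 to 8.51, against 4.61 to 6.17 at 0 h, with all 14 markers above the limit at 8 h. The muscle list was also higher there, with 4 of 5 markers tested past the threshold (median log2 0.67). The part of these lists in the changes was not tested.

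By 24 h 4 genes differed from 0 h in control cells. Igfbp3 and Igfbp4 were higher than at 0 h (0.45 and 0.29) and Igf2 and Igfbp2 lower (-0.38 and -0.52), where 9.12% of all genes were higher and 2.06% lower. With only the groups compared in the model none of the 4 passed. Igfbp5 (-0.33, adjusted p = 0.1) did not pass in the main fit. It was lower when arrays were quantile-normalized again (-0.38, adjusted p = 0.041) and with array weights (-0.33, adjusted p = 0.0055). The same held without the 4 arrays with intestinal transcripts (-0.37, adjusted p = 0.018). Igf2 was not past the threshold without control 24 h replicate 3 (-0.31), Igfbp3 without control 0 h replicate 1 (0.34), and Igfbp4 without control 0 h replicate 1 (0.29) or 3 (0.22) or control 24 h replicate 1 (0.19) or 2 (0.30). At 72 h 5 genes were higher than at 0 h and none lower, where 21.8% of all genes were higher and 16.3% lower. Igfbp3 rose 12.6-fold (log2 3.66, standard error 0.12, adjusted p = 4.2e-20), the 4th largest rise of 14135 genes, and Igfbp5 3.2-fold (log2 1.68, standard error 0.13, adjusted p = 1.9e-11). Igf1 was 2.16-fold higher, Igfbp4 1.63-fold and Igf2 1.33-fold, the last not past the threshold with the mean of its 2 probe sets (log2 0.13, adjusted p = 0.49). The 4 that did not pass were Igf1r (0.23), Igfbp2 (0.13), Igfbp6 (-0.01) and Igfbp7 (-0.09). Igf1r passed without control 0 h replicate 2 (0.28, adjusted p = 0.035), while 1 of its other probe sets was lower at 72 h (-0.43, adjusted p = 0.015) and the rest, at -0.21, -0.18 and 0.12, were not past the threshold.

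**Figure D3:**
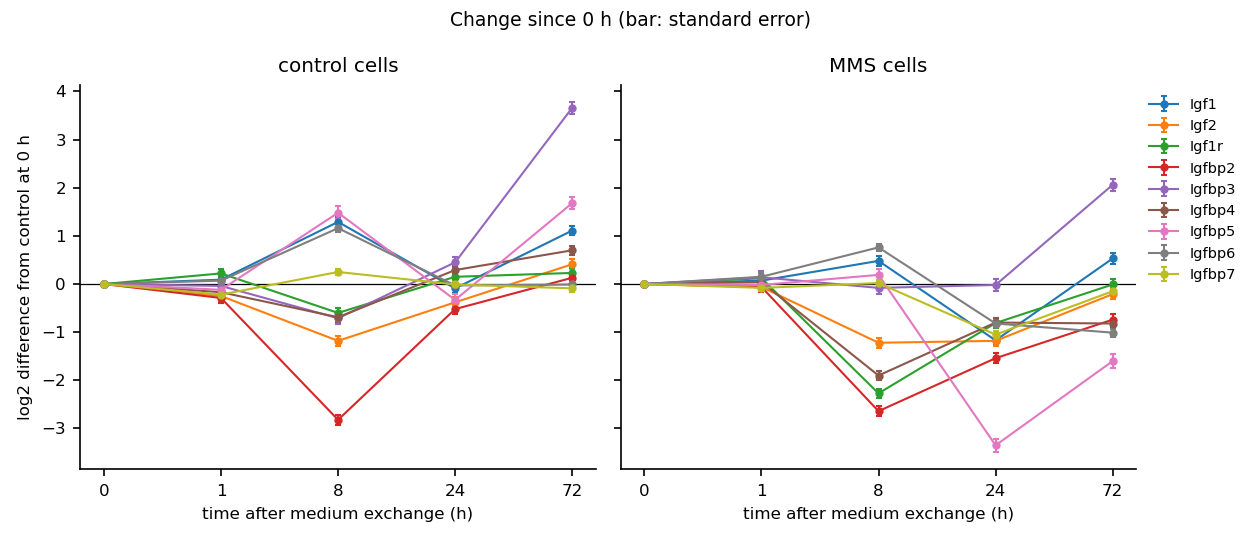
Log2 difference from control at 0 h by time for control cells (left) and MMS-treated cells (right), 1 line per gene, with bars for the standard error. Both panels use the same 4 arrays at 0 h as reference. In control cells Igfbp2 dips to -2.82 at 8 h and Igfbp3 climbs to 3.66 at 72 h, and in MMS-treated cells Igfbp5 reaches -3.35 at 24 h.

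Between 24 and 72 h most of the IGF genes rose in both arms. In control cells 6 of 9 were higher at 72 than at 24 h and none lower, where 18.4% of all genes were higher and 18.8% lower. In MMS-treated cells 7 were higher and none lower, where 20.2% of all genes were higher and 24.3% lower. Of the 9 fibroblast markers 8 were higher in MMS-treated cells (median log2 1.30) and 5 in control cells (median log2 0.49) and none lower, and their part in these rises was not tested. Igfbp5 rose by log2 2.01 in control and 1.75 in MMS-treated cells, so that its level after MMS at 72 h was still 3.02-fold under control at 0 h (adjusted p = 2.2e-10). Igf1 rose by 1.20 and 1.70 and Igf2 by 0.80 and 0.97. Igf1r and Igfbp7 rose in MMS-treated cells (0.80 and 0.90) and not past the threshold in control cells (0.07 and -0.08), and the difference of these changes is the change of the MMS effect given above. Igfbp6 had no rise past the threshold in either arm, and from MMS at 24 to 72 h it was lower without MMS 24 h replicate 3 (-0.24, adjusted p = 0.021).

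All 26 probe sets of the 9 genes passed the limit on signal. At 8 h 18 were lower and 2 higher after MMS, where 25.5% of all 25798 probe sets were lower and 25.8% higher, and the 2 were both of Igfbp3 (0.63 and 1.22). At 24 h 24 were lower and none higher, where 19.4% of all probe sets were lower and 22.9% higher. At 72 h 16 were lower and none higher, where 8.52% were lower and 9.59% higher. The 6 probe sets of Igfbp4 were lower at all 3 times, by -0.40 to -1.35 at 8 h, and the 5 of Igf1r were lower at 8 h by -1.08 to -1.94. At 24 h an Igf1r probe set (-0.22) and the dimmer one of Igfbp5 (-0.38) did not pass. For Igf1 the 4 probe sets were lower after MMS than in control at 8 and 24 h, by as much as -1.74. They did not move alike in control cells from 0 to 8 h, where 2 rose (1.29 and 0.90), 1 fell (-0.31) and 1 was at -0.15, so the rise of Igf1 at 8 h depends on the probe set. For Igfbp3 the second probe set was at 0.24 from 0 to 8 h in control cells (adjusted p = 0.12), where the one used fell. Of the 5 of Igf1r, 2 fell in that step (-0.60 and -0.43), 1 rose (0.48, adjusted p = 1.4e-04), and 2 were at -0.28 and -0.01. At 72 h both probe sets of Igfbp3 rose over 0 h, by 3.66 and 3.95.

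**Figure D4:**
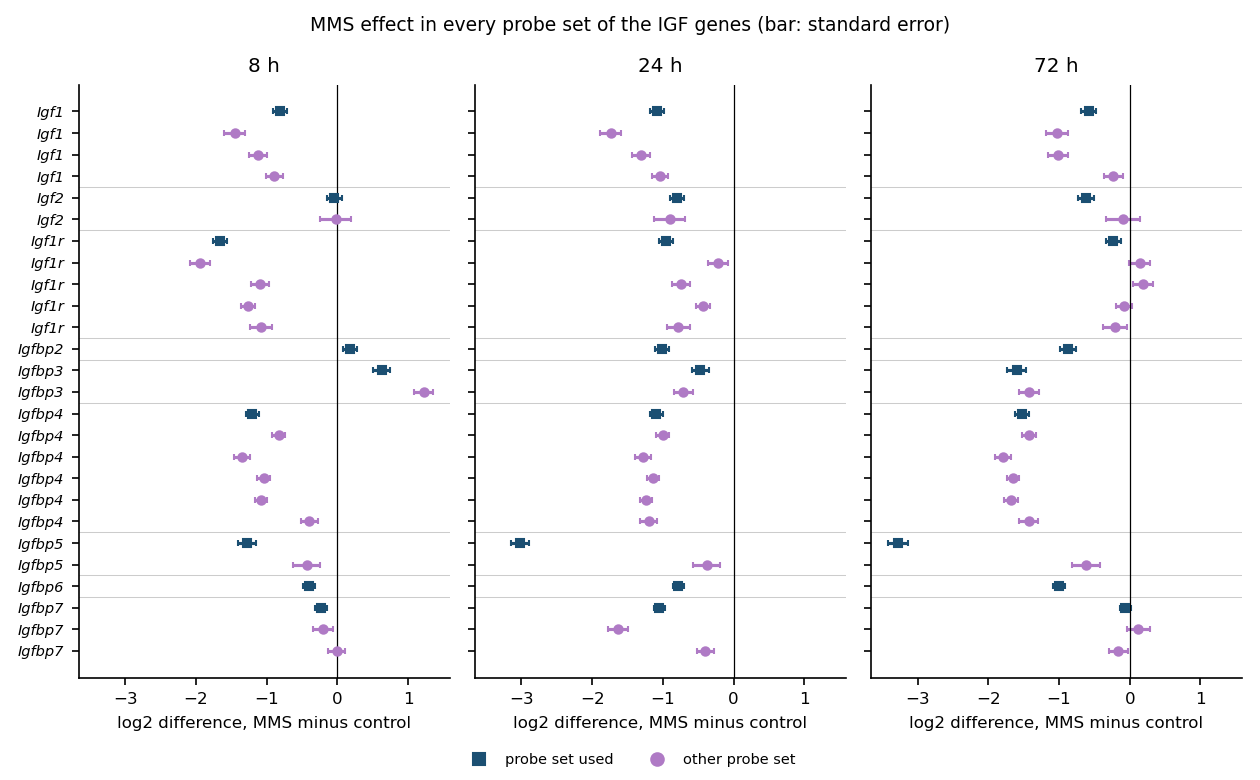
Log2 difference of MMS minus control arrays for each of the 26 probe sets of the IGF genes at 8, 24 and 72 h, with bars for the standard error and squares for the probe set used. The 6 of Igfbp4 lie between -1.0 and -1.28 at 24 h, and the 2 of Igfbp5 are far apart at 24 h (-3.02 and -0.38).

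Of all genes 28.7%, 25.0% and 10.1% were higher and 25.0%, 19.4% and 10.4% lower at 8, 24 and 72 h of MMS, and the lists that follow are to be read against these shares. Of genes that pass on the receptor's signal, at 8 h 4 of 13 were higher and 4 lower, at 24 h 2 higher and 7 lower, and at 72 h 1 higher and 3 lower, with median differences of -0.17, -0.20 and -0.05. Irs1, the substrate that links the receptor to PI3 kinase, was at log2 -2.66 at 8 h (means 10.42 in control and 7.76 after MMS, adjusted p = 1.5e-20) and was lower by smaller amounts at 24 h (-0.52) and 72 h (-0.50). Its relative Irs2 was higher at the 3 times (0.73, 0.70 and 0.41). The adaptor Grb14 was lower at 8 h (-1.70) and its relative Grb10 at 24 h (-0.84). Foxo3, a transcription factor that AKT keeps out of the nucleus, was higher at 8 h (0.78) and 24 h (0.39). Igf2r, which clears IGF2, was lower at 72 h (-0.46). Igf2bp2 and H19 were not analysed here.

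Of 7 proteases of the binding proteins and their inhibitors, 4 were lower and 1 higher at 8 h, 6 lower and 0 higher at 24 h, and 3 lower and 0 higher at 72 h, with median differences of -0.25, -0.50 and -0.16, where 25.0%, 19.4% and 10.4% of all genes were lower. Pappa, the protease that cuts IGFBP4, was lower at 8 h (-1.67) and 24 h (-1.03), while its relative Pappa2 was higher at 8 h (0.52). The metalloprotease Adam12 was lower at 8 h (-1.24) and 24 h (-0.88), and the serine proteases Htra3 (-0.86) and Htra1 (-0.51) were lower at 72 h. Among 4 other genes of the system 2 were lower and 1 higher at 8 h. None was higher later, while 2 were lower at 24 h and 1 was at 72 h, and the 3 times had medians of -0.32, -0.29 and -0.03. Ghr, the growth hormone receptor, was lower at 8 h (-2.12), 24 h (-0.49) and 72 h (-0.29). The mRNA-binding protein Igf2bp3 was lower at 8 h (-0.78) and 24 h (-0.50), and its relative Igf2bp1 was higher at 8 h (0.46). Igfbp1 was under the limit.

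Of 7 genes with an IGFBP-type domain, 5 were lower and 1 higher at 8 h, all 7 lower at 24 h, and 3 lower and 2 higher at 72 h, with medians of -0.83, -0.59 and 0.00, where 25.0%, 19.4% and 10.4% of all genes were lower. Ccn5, a matricellular protein, was lower at 8 h (-2.84), 24 h (-2.81) and 72 h (-0.44). Ccn3 was lower at 24 h (-1.31) and 72 h (-1.65), and Ccn4 at 8 h (-1.60). Ccn1 (0.42) and Ccn2 (0.26), of the same family, were higher at 72 h, and Igfbpl1 was higher at 8 h (0.29). Of 7 imprinted growth genes 4 were lower at each of the 3 times, and 1, 2 and 1 were higher at 8, 24 and 72 h, with medians of -0.27, -0.25 and -0.50, where 28.7%, 25.0% and 10.1% of all genes were higher. Mest was higher at 8 h (1.54) and lower at 24 h (-0.96) and 72 h (-2.48), Meg3 was lower at 8 h (-1.98) and 24 h (-0.88), and Peg3 was lower at 8 and 72 h (-1.17 at both). Plagl1 (0.56) was higher at 24 h, and Ndn was higher at 24 h (0.31) and 72 h (0.35). At 1 h no gene of these 5 lists passed.

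**Figure D5:**
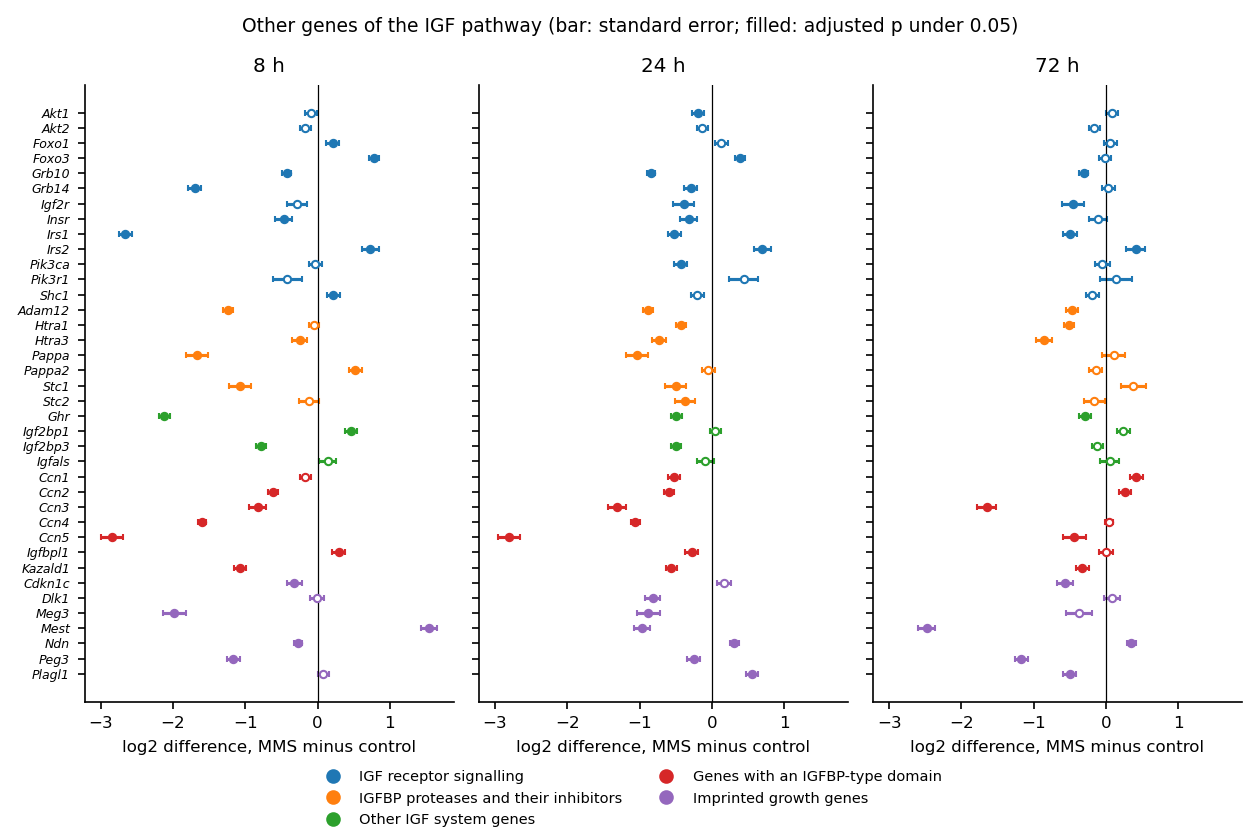
Log2 difference of MMS minus control arrays at 8, 24 and 72 h for the genes of the other lists, coloured by list. Lists of IGF system genes, of genes with an IGFBP-type domain and of imprinted growth genes are shown together. Bars give the standard error, and filled points an adjusted p under 0.05. Irs1 and Ccn5 lie farthest left at 8 h (-2.66 and -2.84), and Irs2 lies right of 0 at all 3 times.

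The genes whose 9 group means followed an IGF gene most closely were sought among all genes tested, by Pearson's r, given as a description over 9 groups that share their arrays. For Igf1r these were Farp1 (r = 0.996, and 0.984 over the 7 groups without 8 h) and Arfip1 (0.994 and 0.978), and for Igf2 they were Sema3b (0.985 and 0.983) and Prelp (0.982 and 0.976). For Igfbp3 they were Adam22 (0.982 and 0.981) and A4galt (0.975 and 0.977), and for Igfbp6 Slc36a3 (0.986 and 0.978) and Ecscr (0.98 and 0.964). Igfbp2 was followed by Depdc5 (0.986 and 0.956) and Gpcpd1 (0.985 and 0.94), Igfbp4 by Tbc1d31 (0.971 and 0.924) and Ppic (0.97 and 0.922), and Igf1 by 4933413J09Rik (0.967 and 0.978) and Clca3a1 (0.955 and 0.952). Igfbp5 was followed by Ldb2 (0.954 and 0.946) and Sox12 (0.953 and 0.942), and Igfbp7 by Nenf (0.958 and 0.961) and Cyp2c50 (0.95 and 0.955). No IGF gene was among the 2 nearest of another. With 14135 genes to choose from this was likely in any case, so it does not tell whether the IGF genes move together.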

How the data were processed

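RNA of 35 arrays in 9 groups was hybridized to Affymetrix mouse arrays. The platform annotation and the methods name different versions of the array, and the probe sets are those of the annotated one. The values are log2 signals of 45101 probe sets, deposited by the authors after RMA (version not given in the sources used here), which corrects background and quantile-normalizes arrays. Array medians were 4.98 to 5.09, and the number of arrays per group limits the precision. Genes were named from the platform annotation: 34958 probe sets have 1 symbol, 932 several and 9211 none, and only the first were used (34754 had an identifier in the RefSeq table of GRCm38.p6).

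Each of 18194 genes was represented by its brightest probe set, and 14135 had a mean in at least 1 group at or over log2 4.40, which is the 40th percentile of the whole table. A linear model of the 9 groups (26 residual degrees of freedom) was fitted to all genes with limma (3.58.1), whose moderated test was two-sided. In each contrast the Benjamini-Hochberg adjustment covered all genes tested, and 0.05 was the threshold. Other software was R (4.3.3), statmod (1.5.0) and the data.table package (1.17.8). A second fit used all 25798 probe sets past the limit. The procedure was tested on simulated data. Tables and plots were made with Python 3.11.15, pandas 2.3.3, numpy 2.4.6, scipy 1.17.1 and matplotlib 3.10.9. Members and gene lists were chosen with earlier results of these data known. Beside the members, the text names up to 2 genes per direction, time and list and the 2 genes nearest in pattern to each member. Replicate 4 of MMS at 72 h was not analysed here. Alternatives changed the normalization, centring, filter, probe set, model, array weights and arrays left out.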

Additional observations from a re-analysis of the deposited data

Results flagged for a closer look

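Of 72 sets of arrays, each 1 gene in 1 group of 4, 2 had an array far from the others: Igf2 in control at 72 h, where replicate 1 was lowest at 12.62, and Igfbp6 in control at 1 h, where replicate 4 was lowest at 8.09. Chance flags about 1 in 20 such groups.

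The MMS effect differed between times by the test of the difference itself. From 1 to 8 h it changed by -0.79 for Igf1, -1.56 for Igf1r, 0.45 for Igfbp3, -1.41 for Igfbp4, -1.39 for Igfbp5, -0.48 for Igfbp6 and -0.37 for Igfbp7 on the log2 scale, the last being -0.12 and not past the threshold with the mean of all probe sets (adjusted p = 0.43). From 8 to 24 h it changed by 0.70 for Igf1r, -0.76 for Igf2, -1.19 for Igfbp2, -1.10 for Igfbp3, -1.73 for Igfbp5, -0.39 for Igfbp6 and -0.81 for Igfbp7. From 24 to 72 h it changed by 0.50 for Igf1, 0.73 for Igf1r, -1.13 for Igfbp3, -0.43 for Igfbp4 and 0.99 for Igfbp7. For Igfbp3 the effect was above 0 at 8 h and below it at 24 and 72 h, past the threshold each time. Igfbp2 had the same signs (0.18, -1.01 and -0.87), but its effect at 8 h was not past the threshold. Changes into and out of 8 h rest on arrays that also held macrophage transcripts, whose part was not tested.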

How the results depend on the processing

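No value past the threshold changed its sign under any alternative. Of the values of MMS against control, 625 kept their side of the threshold, 3 newly passed it and 2 no longer did. Counts of IGF genes that moved by over 1.5 times were those of controls over time, of changes of the effect and of MMS at 72 against 24 h, and their causes were not tested. For control at 1 h against 0 h the number lower was 0 as reported, 2 with the limit at the 60th percentile, 4 with array weights, 1 with the replicate block, 3 without the 4 arrays with intestinal transcripts, and 0 to 3 with 1 array left out. For control at 24 h against 0 h the number higher was 2 as reported, 1 with centred arrays, 0 with only the groups compared in the model, 1 without the 4 arrays, and 0 to 2 with 1 array left out, and the number lower was 2, 1 with the mean of all probe sets, 0 with only the groups compared and 1 to 2 with 1 array left out. At 72 h against 0 h 1 was lower with array weights. The number whose effect became higher from 1 to 8 h was 0 to 1 with 1 array left out, and the number lower from 24 to 72 h was 1 with centred arrays and 1 to 2 with 1 array left out. For control at 72 against 24 h the number lower was 1 with the mean of all probe sets. For MMS at 72 against 24 h it was 1 with the limit at the 60th percentile, with array weights and without the 4 arrays, and 0 to 1 with 1 array left out. Array centring moved the change of effect of Igfbp4 from 8 to 24 h from 0.11 to -0.01, neither past the threshold, and moved the split of all genes higher and lower: 3540 and 2745 became 2736 and 3376 for MMS at 24 h, 1021 and 619 became 1350 and 460 for control at 1 h, 2856 and 3430 became 3474 and 2682 for MMS at 72 against 24 h, 3299 and 3143 became 2460 and 4153 for the change from 8 to 24 h, and 1759 and 2339 became 2265 and 1525 for that from 24 to 72 h.

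Array weights raised the counts of all genes higher and lower, from 51 and 4 to 327 and 130 for MMS at 1 h and from 1426 and 1469 to 2669 and 2948 at 72 h, for controls against 0 h to 2559 and 2185 at 1 h, from 1289 and 291 to 2971 and 1872 at 24 h and from 3084 and 2297 to 4138 and 3728 at 72 h, and to 2498 and 3582 for the change from 24 to 72 h. With only the groups compared in the model, the counts for controls were 572 and 298 for 1 h, 591 and 72 for 24 h, and 2373 and 1451 for 72 h. With the mean of all probe sets they were 72 and 7 for MMS at 1 h.

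Arrays of the same replicate number in control and MMS of 1 time did not all deviate together (r of -0.26 to 0.31 over 15 pairs, and 6 of 15 correlated best with their own number), so the number was not taken as a pairing. Over all pairs of groups r was -0.32 to 0.87, and 45 of 136 correlated best with their own number. For control at 0 h and MMS at 24 h, both with intestinal transcripts on replicate 3, it was 0.61 to 0.87, with 1 of 4 best. Whether equal numbers share an origin was not tested. In control and MMS at 1 h all 4 pairs lay at 0.09 to 0.31, and in MMS at 24 and 72 h all 3 pairs lay at 0.23 to 0.45 and each correlated best with its own number, and the block changed no call of an IGF gene in those comparisons. With the number as a block 116 of 117 values kept their side of the threshold, and Igfbp7 in control at 1 h against 0 h passed it (-0.22, adjusted p = 0.044). Of all IGF group means Igfbp5 after MMS at 24 h (5.32) lay nearest to the limit of log2 4.40.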
